A study of Bos taurus with 8 samples.

Results

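Immediate early genes were followed in the liver of 8 fetal calves as a group of 10 genes: FOS, FOSB, JUN, JUNB, EGR1, IER2, IER3, ATF3, DUSP1 and MYC. The members were chosen by name as textbook immediate early genes, and their probes were found on the arrays through the RefSeq accession of each probe. All 10 genes had at least 1 probe above background, among 10861 genes with such a probe. In all, 22 of 43653 probes on the array belonged to the 10 genes, and 21 of them were detected, which means well above the local background on at least 4 of 8 arrays.

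The fetuses were Japanese Black cattle at 8.5 months after conception. Dams of the low-nutrition (LN) fetuses were fed 60% of their nutritional requirement during gestation, and dams of the high-nutrition (HN) fetuses 120%, with 4 fetuses in each group. By the methods of the study, fetuses were picked for low body weight in LN and for high body weight in HN, so the groups are the ends of the weight range, and there was no group fed exactly the requirement. All fetuses were killed by exsanguination after an injection of lidocaine, and liver was either frozen or kept in RNAlater. By the labels, the diets also covered a time before pregnancy. All dams were inseminated with semen of 1 bull that had been sorted for male calves, by the methods. Which liver was kept in which way and the farm of each dam are not given in the sources used here. The LN fetuses are called L5, L6, L8 and L9, and the HN fetuses L1, L2, L3 and L10, after their labels.

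Immediate early genes are transcribed within minutes of a stimulus, from transcription factors that already stand ready in the cell, and their mRNAs are short-lived. FOS and JUN proteins pair through leucine zippers into the AP-1 transcription factor, and serum response factor and the MAP kinases are among the best-known routes to their promoters. In liver they are known for the first hours after partial removal of the organ, when hepatocytes leave the resting state, and for responses to injury, hormones and handling of the tissue.

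Each fetus was measured on its own 1-colour Agilent array in the sample labels, although the general description of the series speaks of pooled RNA. Values are log2 of the background-subtracted intensity, quantile normalised over 8 arrays. Where a gene had several detected probes, the brightest one on average stands for it. The number of spots well above background ran from 32635 to 34369 of 43803, and 0 were saturated. LN and HN arrays were placed on separate slides, scanned one after the other, so slide, scan and diet cannot be told apart. Of 9 hepatocyte genes, 8 were detected, with albumin between 17.81 and 17.89 in every fetus, and the other gene, APOB, had no matched probe. Of all 12603 genes with a matched probe, 10861 were detected, so this count does not by itself tell liver from another tissue. In bulk liver, fewer cells of a type and less RNA per cell cannot be told apart.

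The 10 genes varied widely between fetuses, and fetuses of both diets overlapped for each of them. The distance between the highest and the lowest fetus was at least 2 on the log2 scale for 8 of the 10 genes, against 6.25% of all detected genes. The SD over 8 fetuses exceeded the median SD of all genes (0.24) for all 10. For FOS, 0.994% of genes had a larger SD, and for MYC, the member with the smallest SD, 15.3%. LN fetus L8 held the highest signal of 8 of the 10 genes, where 11.3% of all genes were highest in that fetus. HN fetus L2 held the highest signal of the other 2, FOS and FOSB. HN fetus L3 was lowest for 5 of the 10 genes, against 11.7% of all genes.

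**Figure D1:**
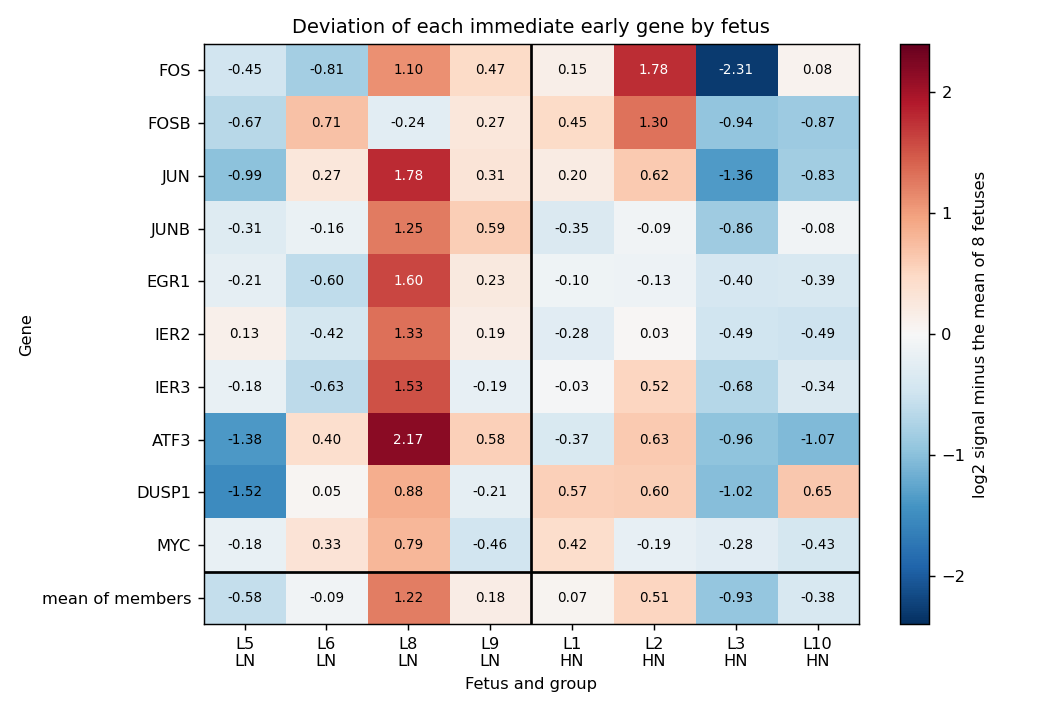
Deviation of each immediate early gene from its mean over 8 fetuses (log2 scale, colour and printed value), with LN fetuses left and HN fetuses right of the line and the mean of the 10 genes in the bottom row. The column of LN fetus L8 is above 0 for every gene except FOSB (-0.24), and that of HN fetus L3 is below 0 for every gene.

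LN and HN were compared gene by gene with limma. Of the 10 genes, 0 passed an adjusted p of 0.05, with 0.788 the lowest, and 0 passed an unadjusted limma p of 0.05, where 6.05% of all genes did. The adjusted rule called 0% of genes. The groups overlapped for all 10 genes, while they did not overlap for 4.14% of all detected genes. Mean signals were higher in LN for 9 of the 10 genes and lower for DUSP1, beside 51.6% of all genes higher in LN. The 10 genes are not independent of each other, since most were high or low in the same fetuses. Without L8, 7 of the 10 genes stayed higher in LN, and the median difference fell from 0.39 to 0.091 on the log2 scale. An exact permutation test on 8 fetuses cannot go below p = 0.0286 in this design. The 95% intervals of FOS and FOSB reached past 1 on the log2 scale in both directions.

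FOS encodes the AP-1 subunit that pairs with JUN proteins. The log2 signal of FOS was 10.70 in L5, 10.35 in L6, 12.26 in L8 and 11.62 in L9 among LN fetuses, and 11.30 in L1, 12.94 in L2, 8.85 in L3 and 11.24 in L10 among HN fetuses. The extremes, L2 and L3, both belonged to HN, and L2 was 16.9-fold above L3. The difference between LN and HN was 0.15 (standard error 0.79, 95% interval -1.64 to 1.94, exact permutation p = 0.886). Its direction depended on single fetuses, since it was -0.19 without L8 and -0.59 without L3. The other 2 detected probes of FOS followed the same course over fetuses, with r of 0.995 and 0.967 against the brightest probe.

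FOSB, a close relative of FOS, was 12.27 in L5, 13.64 in L6, 12.69 in L8, 13.20 in L9, 13.38 in L1, 14.23 in L2, 11.99 in L3 and 12.06 in L10. FOSB was the only member for which L8 lay below the mean of all fetuses. LN and HN differed by 0.036 (standard error 0.52, 95% interval -1.15 to 1.22, exact permutation p = 0.943), far below the SD of 0.60 in LN and 1.09 in HN. Its other detected probe stayed between 8.75 and 9.56, with r of 0.060 against the brightest one and a difference of -0.21 between LN and HN, so the 2 probes disagree on which fetuses are high. Among the 11 further detected probes of the 10 genes, this was the one with r under 0.9 against its gene's brightest probe, and the one that pointed in the opposite direction. The remaining FOSB probe was well above background on 2 of 8 arrays and was not used.

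JUN, the main partner of FOS in AP-1, was 12.20 in L5, 13.46 in L6, 14.97 in L8, 13.50 in L9, 13.39 in L1, 13.81 in L2, 11.83 in L3 and 12.36 in L10. L8 stood 1.51 above the median of the other LN fetuses, and L5, L3 and L10 were low. The difference between LN and HN was 0.69 (standard error 0.61, 95% interval -0.70 to 2.07, exact permutation p = 0.429), and it was 0.21 without L8 and 1.13 without L5. The other 2 probes of JUN gave 0.58 and 0.13, with r of 0.990 and 0.923 against the brightest one.

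JUNB, which can replace JUN in AP-1 and is known as the weaker activator, was 11.01 in L5, 11.17 in L6, 12.58 in L8, 11.92 in L9, 10.98 in L1, 11.24 in L2, 10.47 in L3 and 11.25 in L10. Both L8 and L9 were above every HN fetus, while L5 and L6 lay among them. JUNB had the lowest unadjusted p of the 10 genes by limma, at 0.0822, with a difference of 0.68 (standard error 0.35, 95% interval -0.11 to 1.48, exact permutation p = 0.229). Without L8 the difference was 0.38. Without L5, and again without L6, its unadjusted limma p was under the threshold, at 0.0300 and 0.0489. L5 and L6 were the lowest LN fetuses for JUNB, so leaving either out widens the difference by itself.

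EGR1, a zinc finger factor switched on by growth factors, was 9.25 in L5, 8.86 in L6, 11.06 in L8, 9.69 in L9, 9.36 in L1, 9.33 in L2, 9.06 in L3 and 9.07 in L10. The HN fetuses lay close together, with an SD of 0.16 against 0.96 in LN, and L8 was 1.81 above the median of the other LN fetuses. The difference was 0.51 (standard error 0.41, 95% interval -0.43 to 1.45, exact permutation p = 0.400), and 0.059 without L8.

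IER2, a nuclear protein of the immediate early response, was 12.09 in L5, 11.54 in L6, 13.29 in L8, 12.15 in L9, 11.68 in L1, 12 in L2, 11.48 in L3 and 11.48 in L10. Apart from L6, LN fetuses lay above all HN fetuses. LN and HN differed by 0.61 (standard error 0.33, 95% interval -0.15 to 1.37, exact permutation p = 0.114). Since L6 was the only LN fetus among HN, leaving it out separates the groups by itself, and the unadjusted limma p was then 0.0242. With L8 left out the difference was 0.27.

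IER3, which is known for its part in cell survival under stress, was 9.20 in L5, 8.75 in L6, 10.91 in L8, 9.19 in L9, 9.35 in L1, 9.89 in L2, 8.70 in L3 and 9.04 in L10. L8 was high, and the other LN fetuses lay within the range of HN. The difference of 0.27 (standard error 0.46, 95% interval -0.77 to 1.30, exact permutation p = 0.686) turned to -0.20 without L8.

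ATF3, a factor of the ATF and CREB family induced by many kinds of cell stress, had the largest difference between the group means of the 10 genes. Its signal was 9.40 in L5, 11.18 in L6, 12.96 in L8, 11.36 in L9, 10.41 in L1, 11.41 in L2, 9.82 in L3 and 9.71 in L10. L8 was 11.8-fold above L5, and both belonged to LN. The difference was 0.88 (standard error 0.69, 95% interval -0.68 to 2.45, exact permutation p = 0.371), 0.31 without L8 and 1.49 without L5, where its unadjusted limma p was 0.0250. L5 was the lowest LN fetus for ATF3, so leaving it out widens the difference by itself.

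DUSP1, a phosphatase that switches MAP kinases off again, was 10.94 in L5, 12.50 in L6, 13.33 in L8, 12.24 in L9, 13.02 in L1, 13.05 in L2, 11.43 in L3 and 13.10 in L10. L1, L2 and L10 were nearly equal and high, and L3 lay far below them. DUSP1 was the member with a lower mean in LN, by -0.40 (standard error 0.54, 95% interval -1.62 to 0.83, exact permutation p = 0.543). Without L5 the difference was 0.042, so its direction rested on that fetus. The other 2 probes of DUSP1 gave -0.43 and -0.53 and r of 0.991 and 0.975 against the brightest one.

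MYC, the factor that drives genes of growth and ribosome production, was 10.43 in L5, 10.94 in L6, 11.40 in L8, 10.15 in L9, 11.03 in L1, 10.41 in L2, 10.33 in L3 and 10.18 in L10. Its range of 1.24 was the narrowest of the 10 genes, and fetuses of both groups were found at both ends. LN and HN differed by 0.24 (standard error 0.29, 95% interval -0.42 to 0.90, exact permutation p = 0.543), and by 0.017 without L8. The other detected probes of the remaining genes pointed the same way as the brightest ones, at 0.81 for EGR1, 0.64 for IER2, 0.30 for IER3, 0.29 for MYC and 0.16 and 0.40 for FOS.

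**Figure D2:**
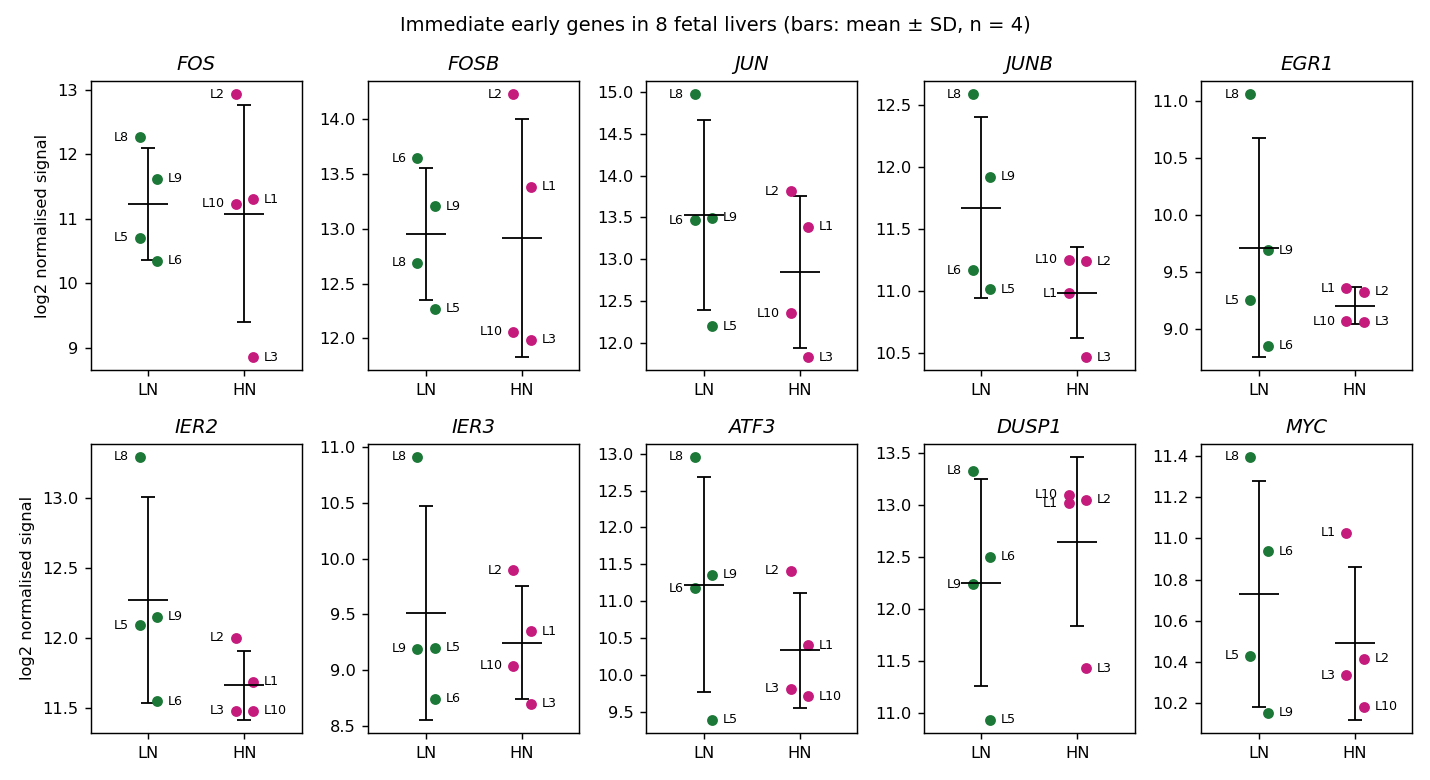
Log2 normalised signal of the 10 immediate early genes, 1 point per fetus, for LN (green) and HN (magenta), with the mean and SD of 4 fetuses as bars. The axes differ between genes and do not start at 0. LN and HN overlap for every gene, and L8 is the top point of 8 of them.

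The genes varied together over the 8 fetuses. Of 45 pairs of members, 44 had a Pearson's r above 0, the median r was 0.61, and 18 pairs reached an r of at least 0.7. For single members, between 1.27% (MYC) and 4.46% (FOS) of all other genes had an r of at least 0.7 with the member. Slide and diet group coincide and each holds 4 fetuses, which is too few for a correlation within the group. With deviations from the group means in place of the signals, the median r was 0.65 and 22 pairs reached 0.7. Centring also raised the share of all other genes at an r of at least 0.7 with a member, to between 2.09% (MYC) and 6.96% (FOS). By exact permutation over 40320 pairings of the 8 fetuses, 17 of 45 pairs passed an unadjusted p of 0.05 for r, and 7 for Spearman's rho. These p-values are not adjusted over the pairs, and pairs share genes and fetuses. The share of all other genes that would pass the same exact tests with a member was not computed.

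JUN and ATF3, whose proteins can bind DNA as a pair, were the most regular pair. Their r was 0.955 (exact permutation p = 8.93e-04) and their rho 0.929 (exact permutation p = 0.00223) over 8 fetuses. When L8 and L3, the fetuses farthest from the median of JUN, were left out, r was 0.948. JUN had an r of at least 0.7 with 7 of the other 9 members, against 1.78% of all other genes, and ATF3 with 5, against 1.44%.

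EGR1 and IER2 gave an r of 0.959 (exact permutation p = 0.00233) and a rho of 0.810 (exact permutation p = 0.0218). The relation leaned on L8, which was far above the rest in both genes, and without L6 and L8 the r was 0.772. EGR1 and IER3 gave 0.903 (exact permutation p = 0.0125, rho 0.810, exact permutation p = 0.0218) and 0.400 without the same fetuses. IER2 and IER3 gave 0.906 (exact permutation p = 0.0101, rho 0.714, exact permutation p = 0.0576), and 0.624 without L8 and L10. EGR1 and IER2 each reached 0.7 with 5 of the other 9 members, against 2.35% and 3.68% of all other genes, and IER3 with 6, against 3.79%.

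JUNB followed EGR1 (r = 0.870, exact permutation p = 0.00804, rho 0.571, exact permutation p = 0.151) and IER2 (r = 0.863, exact permutation p = 0.0116, rho 0.524, exact permutation p = 0.197). Without L8 and L3 these values were 0.615 and 0.429. JUNB had an r of at least 0.7 with 5 of the other 9 members, against 1.88% of all other genes.

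FOS had L2 at the top and L3 at the bottom, and its order over fetuses was close to that of the other members, with a rho of 0.905 against the mean of the other 9 and an r of 0.747. Its r was 0.737 with JUN (exact permutation p = 0.0353, rho 0.833, exact permutation p = 0.0154) and 0.739 with IER3 (exact permutation p = 0.0430, rho 0.857, exact permutation p = 0.0107). When L2 and L3 were left out, these were 0.665 and 0.833. FOS reached 0.7 with 2 of the other 9 members, against 4.46% of all other genes. In a limma fit of every detected probe on the signal of FOS with the group as a term, the slope was above 0 for all 9 other members. The share of all genes with a slope above 0 at any p is not given. For JUN, JUNB, IER3 and DUSP1, 4 of the 9, the slope passed an unadjusted limma p of 0.05. Of all other genes, 4.62% passed with a slope above 0 and 3.88% with one below 0. For JUN the slope was 0.59 (standard error 0.18, limma adjusted p = 0.488), the lowest adjusted p among the members. At an adjusted limma p of 0.05, 0 of all other genes passed in this fit (lowest adjusted p = 0.406). Without L8 the slope passed an unadjusted limma p of 0.05 for 3 members, JUN, JUNB and IER3, against 3.24% of all other genes above 0 and 2.78% below 0, and the slope of MYC was -0.022 (standard error 0.12).

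DUSP1 was nearest to JUN (r = 0.703, exact permutation p = 0.0537, rho 0.643, exact permutation p = 0.0962), the 1 member of 9 with which it reached 0.7, against 2.26% of all other genes. FOSB and MYC reached 0.7 with 0 of the other members, against 1.95% and 1.27% of all other genes. FOSB had r of 0.587 with JUN and 0.575 with FOS, and -0.030 with EGR1. MYC had its highest r with JUN, at 0.686 (exact permutation p = 0.0591), with a rho of 0.310 (exact permutation p = 0.462).

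The strength of the common course depended on L8. Without it, 39 of 45 pairs had an r above 0, the median was 0.50 and 6 pairs reached 0.7, while between 1.59% (MYC) and 6.77% (IER3) of all other genes reached 0.7 with a member. IER3 then did so with 1 of the other 9 members, and JUNB with 0, where 2.06% of all other genes did. These 6 were FOSB with JUN (0.957), JUN with ATF3 (0.909), FOS with IER3 (0.896), FOSB with ATF3 (0.885), EGR1 with IER2 (0.781) and FOS with JUN (0.730). MYC then had an r of -0.33 with EGR1, -0.29 with JUNB and -0.28 with IER2. Leaving out any other fetus kept the median r between 0.55 and 0.69 and the number of pairs at 0.7 between 16 and 22.

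**Figure D3:**
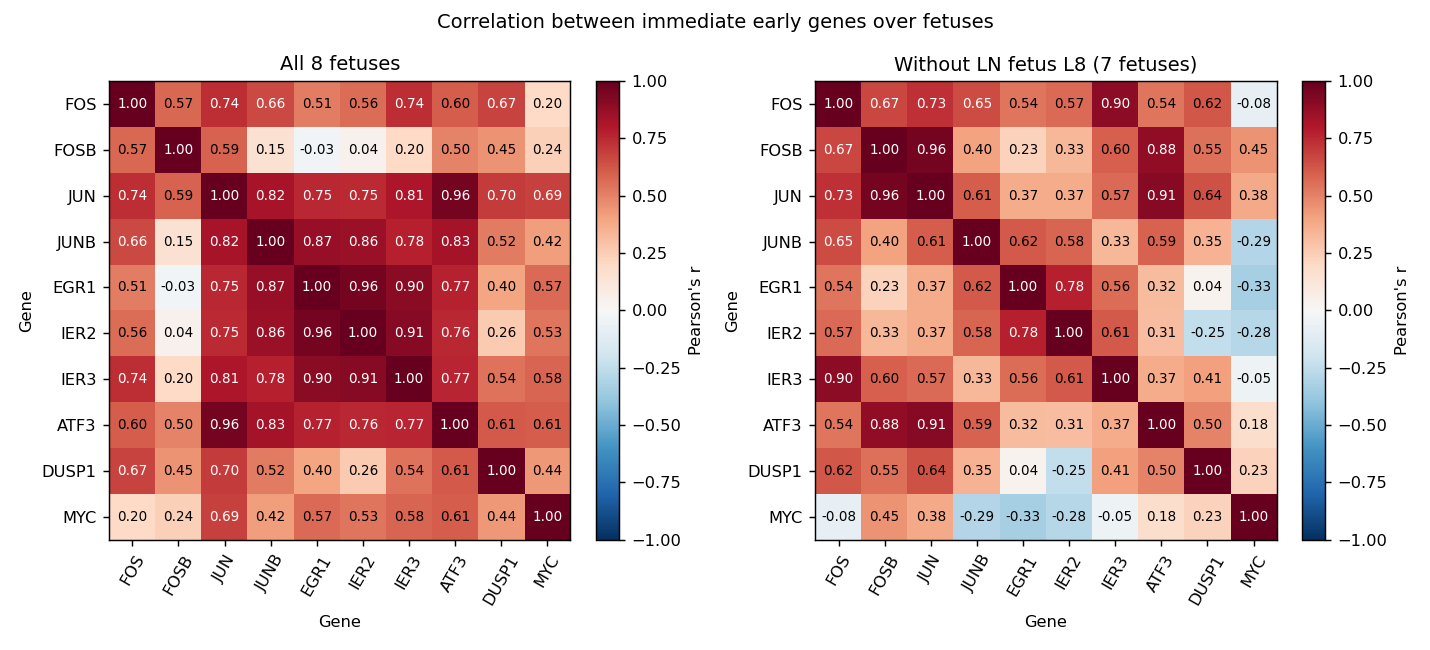
Pearson's r between the signals of each pair of immediate early genes over all 8 fetuses (left) and over the 7 fetuses other than L8 (right), with colour and printed value on a scale from -1 to 1. The block of EGR1, IER2, IER3 and JUNB pales without L8, while JUN with ATF3 stays above 0.9 and FOSB with JUN rises from 0.59 to 0.96.

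**Figure D4:**
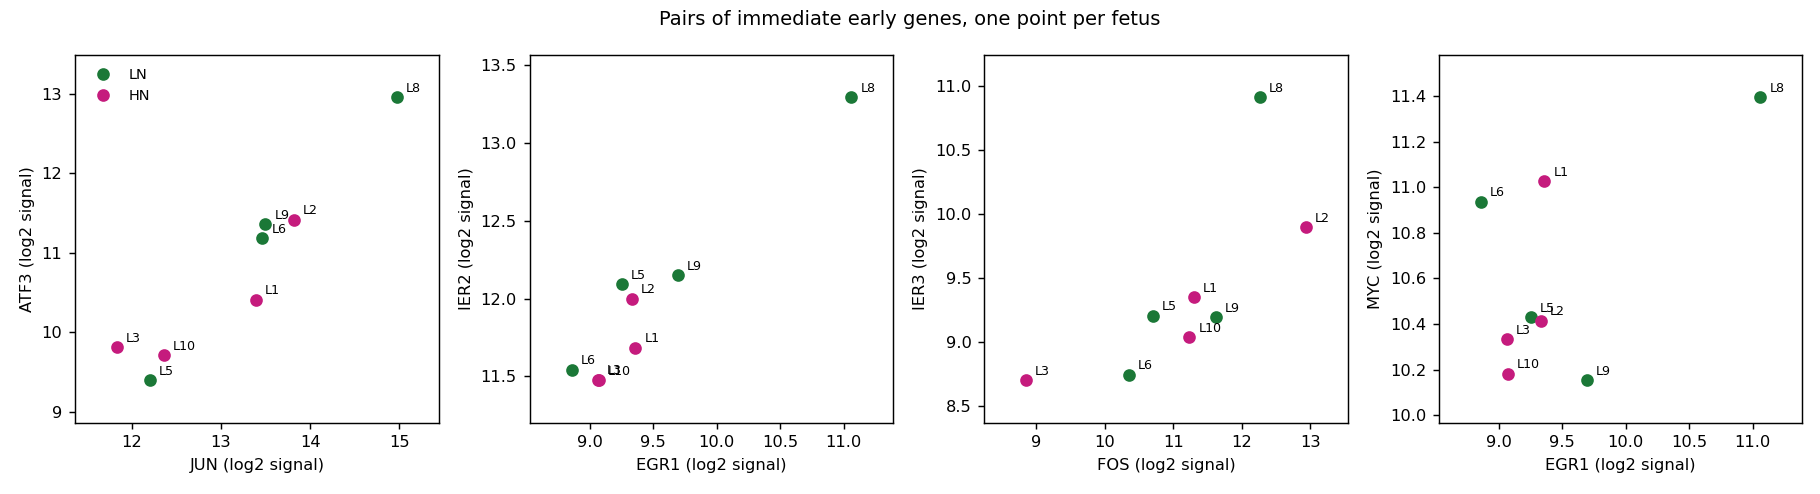
Log2 signal of 4 pairs of immediate early genes, 1 point per fetus, LN in green and HN in magenta. JUN and ATF3 lie along a line with fetuses of both groups mixed, L8 stands apart in EGR1 and IER2, and EGR1 and MYC show no common order apart from L8.

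Among 10851 other detected genes, the one whose signal followed the mean of the 10 members most closely was ZFP36, with r of 0.975 and rho of 0.952 over 8 fetuses. ZFP36 binds AU-rich elements of short-lived mRNAs and leads them to decay. Its log2 signal ran from 9.68 to 11.47 in LN and from 9.36 to 10.62 in HN, with L8 highest and L3 lowest. Without L8 its r was 0.946, which placed it at rank 4 of these genes. LMOD1, an actin nucleator of smooth muscle, was next (r = 0.935), then VEGFA, a growth factor for blood vessels (0.932), PIP4K2B, a lipid kinase (0.928), and DAP3, a protein of the mitochondrial ribosome (0.923). Without L8 these genes ranked lower, LMOD1 at 9, VEGFA at 55, PIP4K2B at 69 and DAP3 at 82. The log2 signal of PIP4K2B was low, from 2.96 in L5 to 3.91 in L8. With FOS alone, the highest r were those of TCTN1 (0.958), CRYM (0.957), MSLN (0.952), CCDC124 (0.950) and CTDSP1 (0.949), and without L8 their r with FOS lay between 0.942 and 0.974. A total of 2.07% of all other genes had an r of at least 0.7 with the mean of the members. Of genes picked from so many, the highest r are high by the choice itself, and no test is given for them.

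Other immediate early genes were listed by name beside the 10 members, and 27 of 38 were detected. In LN 21 of them had a higher mean and 6 a lower one, beside 51.6% of all genes higher. The median difference was 0.17. It was 0.035 without L8, and 0.11 without L2 or without L3. At an unadjusted limma p of 0.05, 2 of 27, KLF10 and KLF4, were higher and 0 lower, where 3.30% of all genes were higher and 2.75% lower. The median over all detected genes was 0.0075. KLF10 and KLF4 are zinc finger factors of the Krüppel-like family. KLF10 differed by 0.62 (limma adjusted p = 0.785, standard error 0.25, exact permutation p = 0.0571) and KLF4 by 0.57 (limma adjusted p = 0.785, standard error 0.24, exact permutation p = 0.0857). PLK2, a kinase induced by serum, differed by 0.36 (standard error 0.24), by 0.21 without L6 and by 0.24 without L8. The mean course of the list over fetuses had an r of 0.840 with that of the 10 members, and 0.717 without L8. Within it CCN1, CCN2, CSRNP1, NR4A1, PPP1R15A and RHOB, 6 of 27, had an r of at least 0.7 with the mean of the members, against the 2.07% above, and 2 did so without L8, against 2.66% of all other genes.

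Of the partners of AP-1 in the wider ATF, MAF and CEBP families, 19 of 24 were detected. In LN 12 were higher and 7 lower, beside 51.6% of all genes higher, with a median difference of 0.093. The median was 0.0099 without L9, 0.061 without L3 and 0.16 without L5, and -0.0004 with the arrays scaled to the 75th percentile. At an unadjusted limma p of 0.05, 2 of 19 were higher and 1 lower, against 3.30% and 2.75% of all genes. BATF2, a partner of JUN proteins in immune cells, was between 6.46 and 6.80 in LN and between 6.82 and 7.21 in HN, without overlap (difference -0.45, limma adjusted p = 0.760, standard error 0.13, exact permutation p = 0.0286). ATF4, the main factor of the amino acid response, differed by 0.48 (limma adjusted p = 0.760, standard error 0.16, exact permutation p = 0.0571). MAFF, a small MAF protein, differed by 0.72 (limma adjusted p = 0.785, standard error 0.30, exact permutation p = 0.0857). Of the list, 3 genes had an r of at least 0.7 with the mean of the members and 1 an r of -0.7 or below, where 2.07% and 1.88% of all other genes did. These were JUND (0.848), DDIT3 (0.706), MAFF (0.702) and BATF3 (-0.82), and without L8 they were at 0.776, 0.350, 0.519 and -0.83.

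The route from growth factor receptors through RAS and MAP kinases to serum response factor was measured by 29 of 40 genes, with 17 higher and 12 lower in LN, beside 51.6% of all genes higher, and a median of 0.028. Of the 29, 1 was higher at an unadjusted limma p of 0.05 and 0 lower, against 3.30% and 2.75% of all genes. MET, the receptor of hepatocyte growth factor, differed by 0.39 (limma adjusted p = 0.785, standard error 0.16, exact permutation p = 0.0857), and was that 1 gene. Its other probe differed by 0.175. RPS6KA3, a kinase below the MAP kinases, differed by 0.31 (standard error 0.14), and HGF, the ligand of MET, by 0.53 (standard error 0.26). SRF was the 1 gene of the list with an r of at least 0.7 with the mean of the members (0.832, and 0.573 without L8), and RPS6KA1 was at -0.79. The log2 signal of SRF was low, from 4.15 to 5.71 in LN and from 4.31 to 4.68 in HN.

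Genes that limit the response, by removing phosphate from MAP kinases, binding EGR1 or leading mRNAs to decay, were higher in LN for 14 of the 15 detected of 22, with a median of 0.29, beside 51.6% of all genes higher. At an unadjusted limma p of 0.05, 4 of 15 were higher and 0 lower, against 3.30% and 2.75% of all genes. NAB2, a corepressor of EGR1, was between 11.06 and 11.31 in LN and between 10.15 and 10.73 in HN, without overlap (difference 0.70, limma adjusted p = 0.723, standard error 0.15, exact permutation p = 0.0286). Its other probes gave 0.007 and 0.37, so the size rested on the brightest probe. DUSP4, a nuclear MAP kinase phosphatase, differed by 0.87 (limma adjusted p = 0.760, standard error 0.31, exact permutation p = 0.0857), and its other probe by -0.36. The brightest DUSP4 probe had a low log2 signal, from 3.89 to 4.84 in LN and from 2.81 to 4.19 in HN. DUSP2, a phosphatase of immune cells, differed by 0.50 (limma adjusted p = 0.785, standard error 0.20, exact permutation p = 0.0571), with L8 highest at 6.94, and by 0.31 without L8. The mean course of the list over fetuses had an r of 0.536 with that of the 10 members, and 0.292 without L8. ZFP36, described above as the closest to the mean of the members, belongs to this list.

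Partners and antagonists of MYC were detected for 15 of 20 genes. In LN 9 were higher and 6 lower, beside 51.6% of all genes higher, with a median of 0.024. At an unadjusted limma p of 0.05, 0 of 15 passed, where 3.30% of all genes were higher and 2.75% lower. The mean course of the list had an r of 0.045 with the members, and 0.26 without L8. MXD1, an antagonist of MYC, was the 1 gene of 15 with an r of at least 0.7, at 0.882, and 0.914 without L8. Its log2 signal was low, from 3.01 to 3.64 in LN and from 2.67 to 3.73 in HN. MNT, which represses at the sites of MYC, differed by -0.41 (standard error 0.21), MXD3 by -0.65 (standard error 0.40, and -0.20 without L10) and RUVBL1, a cofactor of MYC, by 0.22 (standard error 0.14). Known targets of MYC were higher in LN for 18 of 23 detected genes, beside 51.6% of all genes, with a median of 0.24. At an unadjusted limma p of 0.05, 6 of 23 were higher and 0 lower, against 3.30% and 2.75% of all genes. HSPE1, a mitochondrial chaperonin, differed by 0.34 (standard error 0.12) and NPM1, a nucleolar protein, by 0.35 (standard error 0.14), both without overlap (exact permutation p = 0.0286 for each, limma adjusted p = 0.760 and 0.785). The other probes of NPM1 gave 0.31 and 0.18, and that of HSPE1 0.31. PPAN, a factor of ribosome production, differed by 0.63 (limma adjusted p = 0.765, standard error 0.24, exact permutation p = 0.0857). The mean course of the targets over fetuses had an r of 0.372 with the 10 members, and 0.063 without L8, and 0 of 23 targets reached 0.7 (1 without L8).

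Heat shock genes, induced by protein damage, were higher in LN for 15 of 18 detected genes, beside 51.6% of all genes, with a median of 0.24 that was 0.14 without L10. HSP90AA1, a cytosolic chaperone, differed by 0.47 (limma adjusted p = 0.785, standard error 0.19, exact permutation p = 0.0571), the 1 gene of 18 at an unadjusted limma p of 0.05, where 3.30% of all genes were higher and 2.75% lower. HSPH1 differed by 0.51 (standard error 0.24) and DNAJB1, a partner of HSP70, by 0.93 (standard error 0.45). Without L10 these differences were 0.31 for HSP90AA1, 0.27 for HSPH1 and 0.58 for DNAJB1. With the mean of the members, 2 of 18 genes had an r of at least 0.7, against 2.07% of all other genes, and 0 without L8. These were DNAJB1 (0.785, and 0.627 without L8) and DNAJB4 (0.70, and 0.413 without L8). HN fetus L10 was lowest for the list, at -0.64 from its mean over fetuses, and L8 highest, at 0.30. Genes known to respond to glucocorticoids were higher in 7 and lower in 6 of the 13 detected of 14, beside 51.6% of all genes higher, with a median of 0.069. At an unadjusted limma p of 0.05, 1 of 13 was higher and 1 lower, against 3.30% and 2.75% of all genes. PCK1, the gluconeogenic enzyme, differed by -1.98 (limma adjusted p = 0.760, standard error 0.59, exact permutation p = 0.0857), and its other probe by -2.33. MT2A, a metallothionein, differed by 1.23 (limma adjusted p = 0.760, standard error 0.44, exact permutation p = 0.0571). ZBTB16, a zinc finger factor, differed by 0.46 (standard error 0.25). Their r with the mean of the members was 0.113 for PCK1, 0.047 for MT2A and 0.579 for ZBTB16. The list as a whole, with an r of 0.275 over 8 fetuses, had 0.653 without L8.

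**Figure D5:**
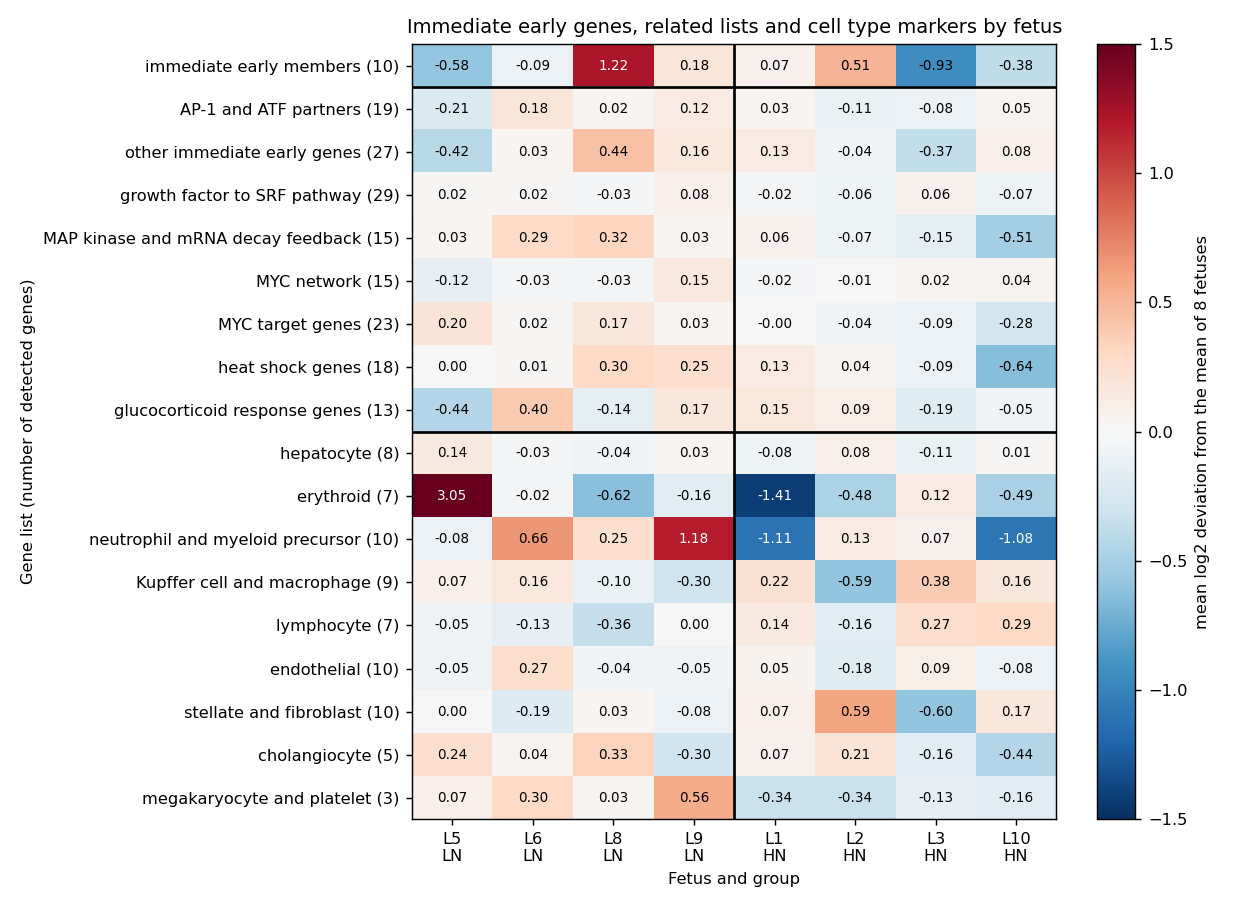
Mean log2 deviation by fetus of the 10 immediate early genes (top row), 8 lists of related genes and 9 lists of cell type markers, with the number of detected genes in brackets. Colours end at 1.5 in either direction. L8 is high and L3 low in the members and, to a smaller degree, in the other immediate early genes, while erythroid markers are at 3.05 in L5 and neutrophil markers at 1.18 in L9.

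Markers of other cell types differed between the fetuses in their own ways. The level of a marker list is given as log2 of the summed signal of its detected genes. Of 10 lymphocyte markers, 7 were detected, all with a lower mean in LN, beside 51.6% of all genes higher, and MS4A1 and IL7R were not detected. At an unadjusted limma p of 0.05, 1 of 7 was lower and 0 higher, against 2.75% and 3.30% of all genes. The level of these markers was between 12.45 and 12.89 in LN and between 12.64 and 13.08 in HN. The mean course of these markers had an r of -0.79 with that of the 10 members, and -0.61 without L8. For 9 Kupffer cell and macrophage markers, of 10 listed, the level was 17.34 to 17.97 in LN and 17.38 to 18.11 in HN, with an r of -0.63, and -0.80 without L8. For both lists r was below 0 with and without L8. All 10 stellate cell and fibroblast markers were detected, at 16.52 to 16.92 in LN and 16.42 to 17.52 in HN. Their r was 0.53, and 0.75 without L8, with L2 at 0.59 and L3 at -0.60 from the mean of all fetuses, which are also the extremes of FOS. Neutrophil markers were higher in LN for 9 of the 10 detected of 12, beside 51.6% of all genes. Their level was 13.29 to 14.84 in LN and 12.42 to 13.70 in HN, with an r of 0.23. Of these 10, 5 were higher in LN at an unadjusted limma p of 0.05 and 0 lower, against 3.30% and 2.75% of all genes. Of 11 erythroid markers, 7 were detected, all higher in LN on average, beside 51.6% of all genes, and 0 of them passed an unadjusted limma p of 0.05. Their level was 13.77 to 16.91 in LN and 12.97 to 14.92 in HN, with an r of -0.46. SLC4A1, KLF1 and EPB42 were not detected. The level of the hepatocyte markers stayed between 20.63 and 20.79 in all fetuses, with an r of 0.024 for their mean course. The brightest genes weigh most in such a sum, and single markers varied more. AFP ran from 16.09 to 17.47 in LN and from 16.11 to 17.44 in HN. The r was -0.31 for 10 endothelial markers, 0.50 for 5 of 6 cholangiocyte markers (0.23 without L8) and 0.033 for 3 of 6 platelet markers. At an unadjusted limma p of 0.05, the platelet markers PF4 (1.02) and TBXA2R (0.45) and the cholangiocyte marker KRT7 (0.67) were higher in LN. At this threshold 0 of the 10 endothelial markers passed, while 3.30% of all genes were higher and 2.75% lower. The remaining platelet marker, ITGA2B, differed by -0.027. The other cholangiocyte markers differed by 0.0064 (KRT19), -0.090 (EPCAM), 0.24 (CFTR) and -0.042 (SPP1). The brightness of the array, as the 75th percentile of its log2 intensity, had an r of 0.16 with the mean of the members, and the number of spots well above background 0.23. These are descriptions over 8 fetuses, and the part of cell types or array quality in the common course of the 10 genes was not tested.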

How the data were processed

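One array per fetus, 4 LN and 4 HN, was read in 1 colour. The authors deposited the scanner output: its processed intensity has the background subtracted and a spatial trend removed by Agilent Feature Extraction 11.0.1.1, and is not normalized between arrays. The log2 values that the authors deposited beside it cover 31068 probes, exactly those detected in every fetus. Quantile normalizing their intensity came within 0.0423 of these values. By the methods, GeneSpring GX did the quantile normalization, and no test is named for the arrays.

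Control and outlier spots were dropped, log2 intensities were averaged per probe, and 43637 complete probes were quantile normalized. By accession, 26743 probes matched 12603 RefSeq genes (ARS-UCD2.0). The array was designed on UMD 3.1, so no coordinates are given. Differences between LN and HN came from limma 3.58.1 (R 4.3.3), with an eBayes fit, 2-sided p-values and Benjamini-Hochberg adjustment over 33440 detected probes. Exact permutation tests, 2-sided, used 70 divisions of the fetuses for a difference and 40320 pairings for a correlation. On simulated data with 10861 genes, 69.0% of genes given a change of 1 on the log2 scale passed the adjusted threshold for LN against HN, and 91.5% of those given a change of 2. These shares are over all genes, whose median SD over fetuses is 0.24, and do not hold for the members, whose SDs run from 0.45 to 1.24.

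The members and lists were chosen with earlier results of these data known. Named genes are the 10 members, the 3 genes of each related list with the lowest unadjusted p, and the genes with the highest r (5) and lowest r (3) with the mean of the members or, highest only, with FOS. Genes of the lists at an r of at least 0.7 in size were named after their values were seen. Markers are named beside results. Alternatives were scaling to the 75th percentile, normexp with an offset of 50 on medians of spot and background, the authors' log2 table, other filters, the mean over probes, an eBayes fit with trend and robust estimation, a block for slide position, rank correlation, group-centred values and each fetus left out. The fit on FOS without L8, list correlations without it and differences of the named list genes with each fetus left out were added after the data were seen. The number of arrays limits the precision, and nothing in the labels says whether RNA was extracted more than once per fetus. For 1 further gene of the related lists, the correlation with the members is not reported here.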

Additional observations from a re-analysis of the deposited data

Results flagged for a closer look

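DUSP1 in HN fetus L3 stood apart from the rest of its group: its log2 signal of 11.43 lay below those of L1, L2 and L10, and the gap to the nearest of them was 0.953 of the whole range of the group. It was 1 of 20 groups tested, and chance alone sets about 1 in 20 groups apart. The other probes of DUSP1 also had L3 lowest among HN fetuses, at 11.28 and 5.19. L3 was the lowest HN fetus for FOS (8.85), FOSB (11.99), JUN (11.83), JUNB (10.47), EGR1 (9.06) and IER3 (8.70) as well.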

How the results depend on the processing

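No member passed an adjusted limma p of 0.05 under any of 16 alternatives, and 7 to 10 of the 10 genes were higher in LN. When each fetus was left out, between 0 and 2 members passed an unadjusted limma p of 0.05 (2 without L5 and 2 without L6), and between 0 and 1 had groups that did not overlap. The shares of all genes that pass or do not overlap in these fits are not given. The shares from the fit on all fetuses cannot stand in for them, since smaller groups avoid overlap more easily by chance. With each fetus left out, the differences ran from -0.59 to 0.77 for FOS and -0.27 to 0.47 for FOSB. They ran from -0.20 to 0.52 for IER3 and -0.81 to 0.042 for DUSP1. The direction of these 4 genes thus rested on single fetuses. FOSB was -0.20 without L6, -0.047 without L9, -0.27 without L3 and -0.25 without L10. It was -0.086 as the mean over its detected probes. The 6 other members kept their direction under every alternative. The median r over 45 pairs ran from 0.50 to 0.69 with each fetus left out, and the number of pairs at 0.7 from 6 to 22. By Spearman's rho 9 pairs reached 0.7. Without the 2 fetuses farthest from the median of the first gene, 7 pairs did, and the median r was 0.31, with 6 fetuses left for each pair. The cause was not tested. Among related lists, the median difference changed sign with a fetus left out for the growth factor pathway (-0.036 to 0.10, below 0 without L9 or L2) and the glucocorticoid list (-0.12 to 0.20, below 0 without L6, L8 or L3), and for the AP-1 partners with scaling to the 75th percentile (-0.0004). That of the MYC network ran from 0.011 without L9 to 0.069 without L3. The 24 named genes of these lists kept their direction with each fetus left out, and 6 of them shrank by over 1.5 times for some fetus. Normalization, background correction, filters and the authors' log2 table left the median r between 0.61 and 0.63. No paired analysis was possible because LN and HN fetuses share no number in their labels. A block for the place of the array on its slide, which pairs places and not animals, left 0 members at an unadjusted limma p of 0.05.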

Other observations

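The genes that ran most nearly opposite to the mean of the 10 immediate early genes over 8 fetuses were ATP6V0B, a subunit of the vacuolar proton pump (r = -0.978), NFATC2IP, which binds a factor of T cell activation (-0.972), and KCNG1, a potassium channel subunit (-0.958). Their log2 signals were lowest in L8, at 13.8, 6.44 and 3.82, and highest in L3, at 14.3, 7.52 and 4.76. LN and HN differed by -0.056 (standard error 0.14) for ATP6V0B, -0.19 (standard error 0.21) for NFATC2IP and -0.15 (standard error 0.19) for KCNG1. Without L8 the values of r were -0.951, -0.939 and -0.922. These genes were picked as extremes of 10851 genes, and no test is given.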
